A study of Mus musculus with 9 samples.

Results

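Very long genes were taken as the rows of the deposited expression table that span more than 400 kb of the mouse genome and have a mean of at least 1 FPKM over the 9 libraries. FPKM is the number of fragments scaled to transcript length and library size. The rule gave 102 genes of the 11305 at that level, out of 17559 with values. Park2 was left out by the rule, because its reads were assigned from a repeat. Another 208 rows over 400 kb had values below the level. The members were chosen by their span in the table and their mean FPKM, and were compared with the 11202 other genes at that level. The level chose genes over all libraries together, so no comparison between groups was used. It is passed by members that are high in only some libraries. At least 1 FPKM was reached in every library by 75 members, and in at least 3 libraries by 101.

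The cells were primary peritubular myoid cells from the testis of C57BL/6J mice, the contractile cells around the seminiferous tubules. The series asks what heat stress does to them. Control cells were kept at 37 °C, and heated cells spent 30 min at 42 °C and were collected 1 h or 6 h after heat. Each of the 3 groups held 3 bulk RNA libraries. The labels do not say whether the replicates were separate cultures or animals, so p-values speak only of the variation among these 9 libraries, part or all of which could be technical. In bulk RNA, fewer cells of a type and less RNA per cell cannot be told apart.

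RNA polymerase II has to travel the whole span of a gene, most of it intron, before a full transcript is made, so the longest genes are the slowest to yield new mRNA. Heat shock is known to halt or slow transcription of many genes for a time while heat-shock genes are induced. Many of the longest mammalian genes encode adhesion molecules, cytoskeletal proteins and signalling regulators of muscle and nerve.

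Depth was even across the libraries, estimated at 18900000 to 19950000 reads each. The heat-shock gene Hspa1a stood at 6.51 to 11.5 FPKM in the control libraries, 1308 to 1889 at 1 h and 27.6 to 49.0 at 6 h. The 6 h replicates differed more for Hsph1, another heat-shock gene, at 286.8, 16.2 and 102.95 FPKM. Hsph1 stood at 17.99 to 21.7 in control, so replicate 2 was below the controls. A sum of 5 heat-response genes, these 2 included, was 453.3, 117.5 and 228 FPKM at 6 h, and at most 90.1 in control. Acta2, the smooth muscle actin of myoid cells, stood at 985 to 1532 in all libraries, and Tagln at 1624 to 2091. Other contractile markers varied more, with Myh11 at 8.58 to 46.1 FPKM, Des at 11.2 to 59.98, Cnn1 at 18.75 to 112.4 and Actg2 at 44.1 to 203.8. Control replicate 3 was the highest library for Acta2, Des, Cnn1 and Actg2, but not for Myh11 or Tagln. The lowest library for Myh11, Des and Cnn1, but not for the others, was 6 h replicate 2. The libraries also held Leydig cell transcripts, with 6 markers summing to 857 to 2232 FPKM, although Cyp17a1 and Lhcgr were at or near 0. A sum of 5 macrophage markers was 50.7 to 77.7 FPKM in control, 59.5, 176.0 and 248.3 at 1 h, and 231.2, 208.0 and 40.6 at 6 h. For 5 endothelial markers it was 29.8 to 80.8 over all libraries. Control replicate 3 stood apart, with the highest value of all 9 libraries for each of 6 Sertoli markers. Their sum was 2793 FPKM there and 193.6 to 502.7 in the other libraries. Clu and Cldn11 made up most of it, while Amh and Fshr were near 0 in every library. These and all FPKM values below are after library scaling, which divided each library by a factor between 0.909 and 1.067.

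For 97 members RefSeq or GENCODE has the gene on the same chromosome with a span over 400 kb, called a matched span here. The other 5 have no such match. Matched lengths can differ: Sgcd has 400519 bases in the table and 1018374 in RefSeq, and Robo2 has 518606 and 1555467. The table gives the ribosomal protein gene Rpl38 a span of 62325660 bases on chromosome 6, where RefSeq has 4515 bases on chromosome 11. Actg1, the cytoplasmic gamma-actin gene, has 16785170 bases on chromosome 4 in the table and 2808 on chromosome 11 in RefSeq. Gm6710, Gm14326 and Gm14420, placed on a stretch of chromosome 2 rich in near-identical zinc finger genes, span 14452 to 21393 bases in RefSeq. These 5 rows stay in the counts of 102, and the classes by span use the 97. Of the 97, Ptprd, a receptor tyrosine phosphatase gene of 2270.7 kb at chr4:75941237-78211895 (mm10), and Dmd, the dystrophin gene of 2256.2 kb at chrX:82948870-85205050, had the longest spans in the table. In RefSeq Dmd is the longer, with 2390386 bases beside 2270505 for Ptprd.

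The median span was 521.5 kb for the 102 members and 21.8 kb for other genes. Long span came with other features. The median longest transcript was 6481 bases for members and 2849 for other genes, and the median level was 3.99 and 11.1 FPKM. By table span, Dst (400437 bases) and Sgcd (400519, but 1018374 in RefSeq) lay just inside the limit, and Slc24a3 (399342) and Plxdc2 (399535) just outside. From 1 h to 6 h their log2 differences were -0.37, -0.48, -0.35 and -0.60, similar on both sides of the limit. At the level limit, Pde10a (mean 1.02 FPKM) and Elmo1 (1.05) were inside, and Fgf13 (0.983) and Wbscr17 (0.989) were outside.

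Promoters were read from RefSeq (GRCm38.p6), which held one for 79 of the 97 members. The promoters of 4 members described below, picked by their values, are shown, 300 bases each, 5′ to 3′ on the strand of the gene. Dock1, Tbc1d5 and Rbms3 had among the lowest unadjusted p-values for 6 h against 1 h, and Slit3 had the largest difference at 1 h. Capitals mark matches to the letters of the GC box (GGGCGG on either strand) and the TATA box (TATAAA on either strand).
Dock1 promoter, chr7:134670437-134670736, plus strand: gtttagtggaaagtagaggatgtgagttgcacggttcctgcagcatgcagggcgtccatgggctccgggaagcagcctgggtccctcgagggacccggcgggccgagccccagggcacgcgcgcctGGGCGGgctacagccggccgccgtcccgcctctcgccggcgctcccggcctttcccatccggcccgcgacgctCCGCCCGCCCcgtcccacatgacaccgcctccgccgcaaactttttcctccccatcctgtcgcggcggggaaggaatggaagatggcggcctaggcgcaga
Tbc1d5 promoter, chr17:51179303-51179602, minus strand: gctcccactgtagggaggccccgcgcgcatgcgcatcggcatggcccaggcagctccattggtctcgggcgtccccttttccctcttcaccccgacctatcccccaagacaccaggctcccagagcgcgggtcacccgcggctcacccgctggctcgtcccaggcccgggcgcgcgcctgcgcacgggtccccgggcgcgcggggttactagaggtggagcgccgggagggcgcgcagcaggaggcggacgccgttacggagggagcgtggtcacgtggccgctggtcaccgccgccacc
Rbms3 promoter, chr9:117629864-117630163, minus strand: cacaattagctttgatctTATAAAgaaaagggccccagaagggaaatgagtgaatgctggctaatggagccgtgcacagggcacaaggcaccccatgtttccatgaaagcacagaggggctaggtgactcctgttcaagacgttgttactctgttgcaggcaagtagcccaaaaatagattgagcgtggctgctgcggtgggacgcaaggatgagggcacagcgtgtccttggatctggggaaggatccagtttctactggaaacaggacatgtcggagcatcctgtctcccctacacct
Slit3 promoter, chr11:35121206-35121505, plus strand: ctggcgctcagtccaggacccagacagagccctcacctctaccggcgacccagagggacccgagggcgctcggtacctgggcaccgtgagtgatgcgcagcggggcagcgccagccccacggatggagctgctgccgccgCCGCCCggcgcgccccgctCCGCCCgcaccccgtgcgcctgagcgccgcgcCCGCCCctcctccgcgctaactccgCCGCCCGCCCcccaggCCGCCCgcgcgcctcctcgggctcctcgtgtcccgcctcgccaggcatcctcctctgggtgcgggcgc

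The Dock1 window holds 3 GC boxes, of which a pair overlap, and the Slit3 window holds 6. The Rbms3 window holds 1 match to TATAAA and 7 CpG, against 34 CpG in Dock1, 37 in Tbc1d5 and 41 in Slit3. That match lies near the 5′ end of the window, far from the start of the gene, and is a match of letters only. A GC box was present in 60.8% of the 79 promoters and in 67.6% of 8987 promoters of other genes. For TATAAA the shares were 7.6% and 6.8%. The heat-shock element, here GAA, TTC and GAA each set apart by NN, was found in 0 of the 79 promoters and in 0.4% of the others, and the shorter GAANNTTC in 3.8% and 5.6%. TGACGTCA, the cyclic AMP element, was in 0 of 79 and in 3.3%, and the AP-1 motif TGANTCA in 3.8% and 4.7%. Median CpG counts were 20 and 21, so the members' promoters looked much like those of other genes by these measures. All motifs were searched on both strands, and the short heat-shock motif lies within the long one.

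At 1 h after heat, the very long genes as a set were near the control level. The median log2 difference was 0.016 for members and -0.015 for other genes. Of the 102 members 45 (44.1%) were below 0, against 52.8% of other genes. limma, which fits all 11305 genes at once, called 0 members at an adjusted p below 0.05. It called 0.23% of all genes as higher and 0 as lower. At an unadjusted p below 0.05, 6 members were higher and 0 lower, where 4.55% and 2.26% of all genes were. All 3 libraries at 1 h lay above all 3 controls for 11 members, a share of 10.8% beside 9.19% of all genes. All 3 lay below for 2 members, Pde10a and Ptprd, which is 1.96% beside 6.93%. Group means in control and at 1 h were 1.149 and 0.727 FPKM for Pde10a, and 2.429 and 1.024 for Ptprd. Both passed the level of the rule in part through the controls, so their being lower follows in part from how members were chosen. This comparison depended on control replicate 3: without it, the median was 0.149 and 29 members were higher with no overlap, where 17.5% of all genes were.

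At 6 h after heat most very long genes were below the control level. The median log2 difference was -0.237 for members and -0.015 for other genes. Below 0 were 80 members (78.4%), against 52.6% of other genes. limma called 0 members and 0 of all genes in either direction. At an unadjusted p below 0.05, 10 members were lower and 1 higher, or 9.8% and 0.98%, where 2.66% and 1.81% of all genes were. All 3 libraries at 6 h lay below all 3 controls for 14 members, 13.7% beside 4.16% of all genes. They lay above for 2 members, Ncald and Thsd7a, 1.96% beside 3.02%. The size depended on control replicate 3: without it the median was -0.105, and without that library and 6 h replicate 2 together -0.076.

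From 1 h to 6 h the difference was clearest. The 6 h comparisons share the 6 h libraries, so they are not separate evidence. The median log2 difference from 1 h to 6 h was -0.263 for members and -0.011 for other genes. Below 0 were 85 members (83.3%), against 51.7% of other genes. limma called 0 members in either direction, while it called 0.398% of all genes as lower and 0 as higher. The smallest adjusted p among members was 0.0956, for Dock1. At an unadjusted p below 0.05, 17 members were lower and 0 higher, or 16.67% lower where 5.74% of all genes were. All 3 libraries at 6 h lay below all 3 at 1 h for 32 members, 31.4% beside 9.18% of all genes. They lay above for 0 members, beside 8.96%. Leaving out any 1 library kept the median between -0.309 and -0.224.

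The direction was shared by the 6 h libraries but not evenly. Taking each gene's deviation from its mean over the 9 libraries, the members' median was -0.147, -0.261 and -0.144 in 6 h replicates 1, 2 and 3. At 1 h it was 0.102, 0.051 and 0.137, and in the controls -0.007, -0.101 and 0.214. All 6 h libraries were thus below all others, while the controls straddled 0, with replicate 3 the highest of the 9. The same medians over other genes were within 0.001 of 0. Control replicate 3 held the highest value of 43 members (42.2%), against 21.0% of other genes. The 6 h libraries together held the lowest value of 76 members (74.5%), against 46.9% of other genes, and 39 of those were in replicate 2. The Sertoli marker sum, which was highest in control replicate 3, spanned 193.6 to 502.7 FPKM at 1 h and 297.8 to 414.7 at 6 h, so it overlapped between those groups. Its part in the comparisons with control was not tested, nor was that of the other marker sums in any comparison.

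**Figure D1:**
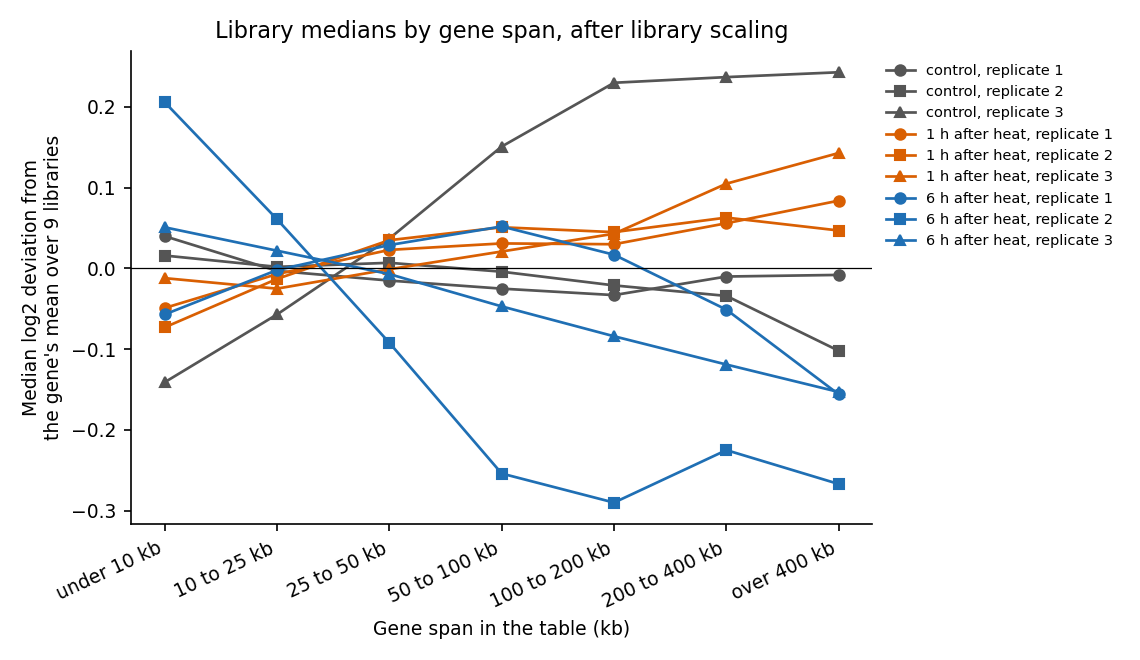
Median log2 deviation of each library (y axis, from the gene's mean over 9 libraries) for genes in 7 classes of span (x axis, kb), with 1 line per library, coloured by group and marked by replicate. In the class over 400 kb the 3 libraries at 6 h lie between -0.267 and -0.153, below the 6 others, and control replicate 3 lies at 0.243.

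The difference grew with span across the whole table. Genes under 10 kb had a median log2 difference of 0.113 from 1 h to 6 h, genes of 10 to 25 kb 0.022, and genes of 25 to 50 kb -0.06. It was -0.12 at 50 to 100 kb, -0.165 at 100 to 200 kb, -0.195 at 200 to 400 kb and -0.272 over 400 kb. The very long genes were the lower end of a graded series. The share of genes with all 6 h libraries below all 1 h libraries rose from 4.89% under 10 kb to 24.6% at 200 to 400 kb and 33.0% over 400 kb. Against control, the medians at 6 h went from 0.079 under 10 kb to -0.246 over 400 kb. At 1 h they ranged only from -0.033 at 100 to 200 kb to 0.015 at 200 to 400 kb. Without 6 h replicate 2 the medians from 1 h to 6 h kept their order and were smaller, from 0.032 under 10 kb to -0.229 over 400 kb. Without control replicate 3 and 6 h replicate 2, the graded order against control was not kept. The medians at 6 h were then -0.037 under 10 kb, 0.014 at 10 to 25 kb, 0.014 at 25 to 50 kb and 0.012 at 50 to 100 kb. They were -0.01 at 100 to 200 kb, -0.069 at 200 to 400 kb and -0.085 over 400 kb. Single libraries differed in shape. In 6 h replicate 1 the median deviation was 0.052 at 50 to 100 kb, 0.017 at 100 to 200 kb, -0.051 at 200 to 400 kb and -0.156 over 400 kb. In 6 h replicate 2 it was already -0.254 at 50 to 100 kb.

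**Figure D2:**
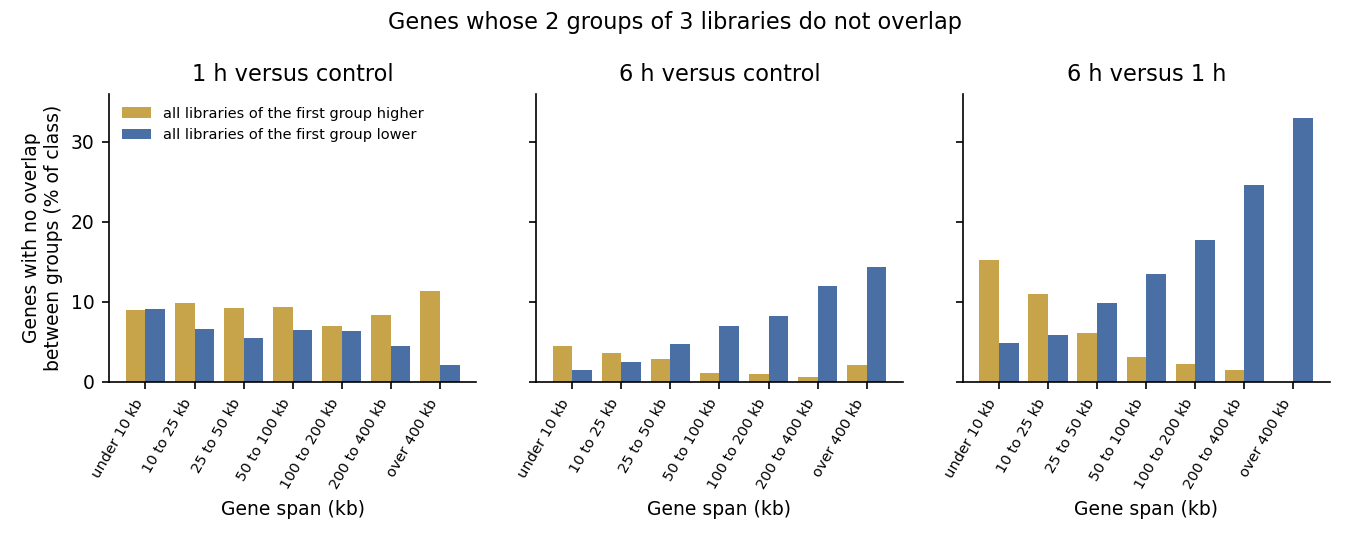
Share of genes in each class of span (x axis, kb) whose 3 libraries of the first-named group all lie above (ochre) or all below (blue) the 3 of the other (y axis, % of class), in 3 panels, 1 per comparison. From 1 h to 6 h the share below rises to 33.0% over 400 kb while the share above falls to 0.

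Transcript length moved with span and with the difference. Across 11299 genes, Spearman's rho of the 6 h against 1 h difference was -0.316 with span and -0.325 with the longest transcript. These genes share the same 6 libraries and are not independent. For 6 h against control, rho was -0.355 with span and -0.388 with transcript length. Within classes of transcript length the members still had the lower medians. Among transcripts of 3 to 5 kb, the median difference from 1 h to 6 h was -0.337 for 20 members, -0.063 for other genes and -0.031 for genes of at most 50 kb span. Among transcripts of 5 to 8 kb it was -0.281 for 33 members and -0.148 for other genes. Above 8 kb it was -0.272 for 33 members and -0.197 for other genes, a narrower gap. Below 3 kb it was -0.098 for 11 members and 0.06 for other genes. Other genes with transcripts of at least 5 kb had a library median of 0.087 in 6 h replicate 1, where the very long genes had -0.147. In 6 h replicate 2 the order was the other way, -0.36 for those other genes and -0.261 for members. From 1 h to 6 h the members' median was also the lower in each of 5 classes of expression level, but the class over 20 FPKM held only 3 members. In that class the members' median at 6 h against control was the higher, 0.441 beside 0.036 for other genes. At 2 to 5 FPKM the median difference from 1 h to 6 h was -0.34 for 25 members and -0.027 for other genes. Among the 97 members themselves span and difference were nearly unrelated (rho -0.098). The separate parts of span and transcript length in the result were not tested.

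**Figure D3:**
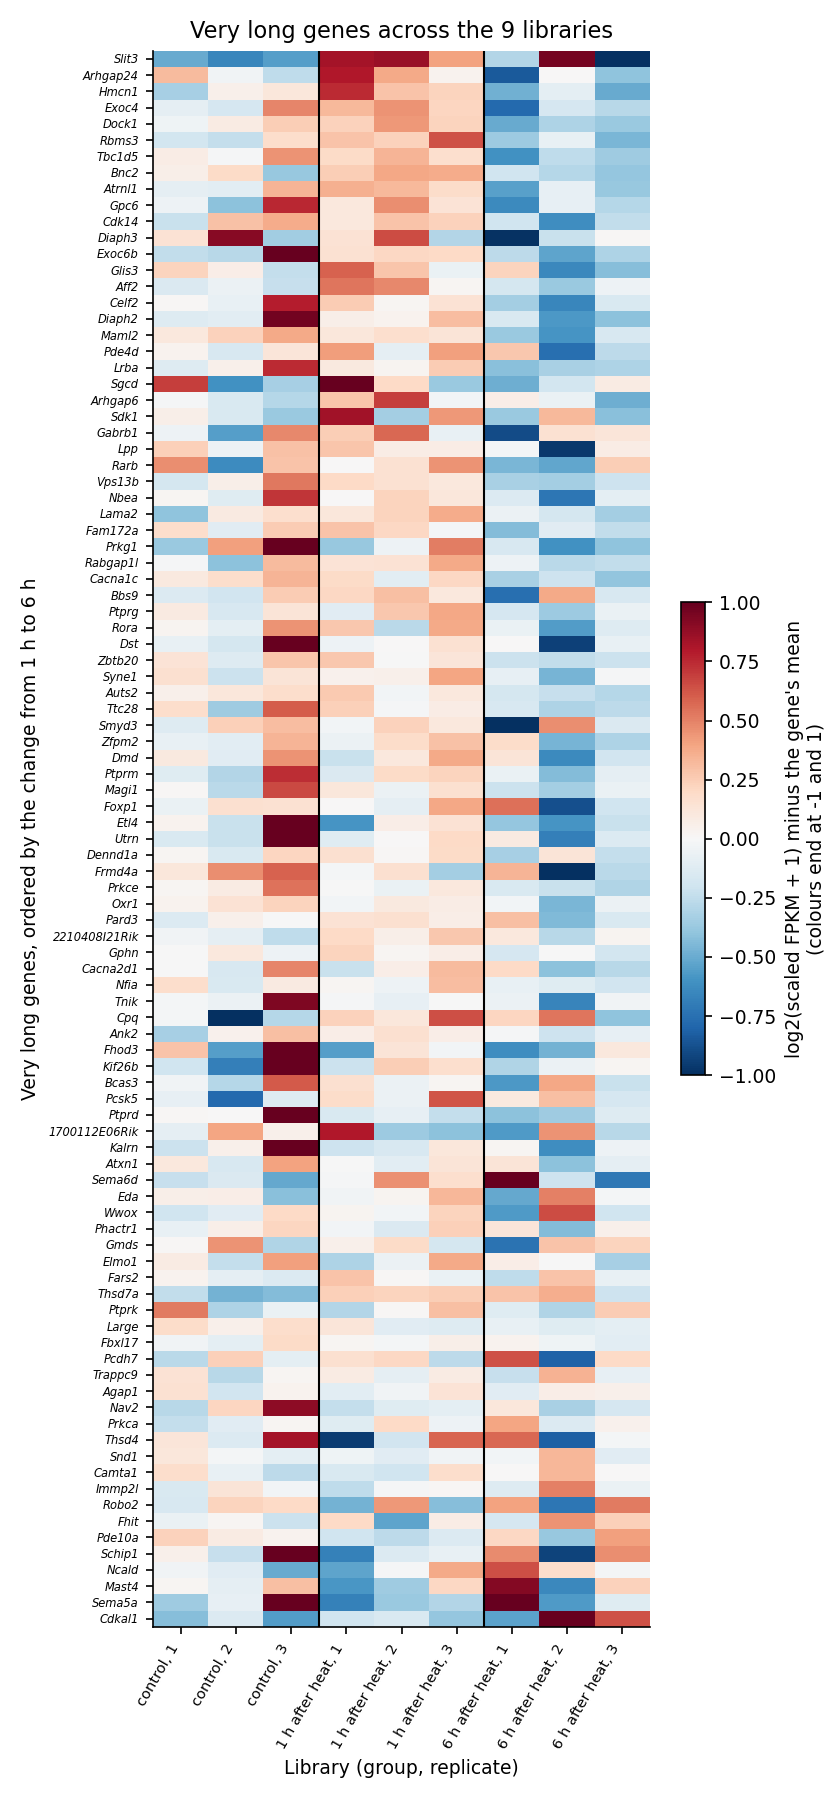
Each row is 1 of the 97 very long genes with a matched span, ordered by the change from 1 h to 6 h, and each column is 1 library. Colour gives log2(scaled FPKM + 1) minus the gene's mean, from -1 (blue) to 1 (red). The 6 h columns are mostly blue, and control replicate 3 holds the strongest reds.

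The list of small GTPase regulators and vesicle traffic was the largest, with 17 members. One of them, Immp2l, encodes a mitochondrial inner membrane peptidase subunit. From 1 h to 6 h their median log2 difference was -0.43, 15 of 17 were below 0, and 10 were lower with no overlap between the groups, where 9.18% of all genes were. Immp2l was one of the 2 above 0. Against control the median at 6 h was -0.177, with 14 below 0. Dock1 (chr7:134670687-135173647), a Rac activator used in cell migration and engulfment, stood at 7.10, 7.84 and 8.86 FPKM in the controls and 8.75, 10.3 and 8.74 at 1 h. At 6 h it stood at 4.89, 5.72 and 5.46, below each of the other 6 libraries. The log2 difference from 1 h was -0.69 ± 0.14 (SE, n = 3 per group, limma adjusted p = 0.0956). Tbc1d5 (chr17:50733127-51179352), which regulates Rab7 and retromer traffic, followed the same course: 4.46, 4.15 and 6.08 FPKM in control, 4.92, 5.56 and 4.84 at 1 h, then 2.40, 3.35 and 3.06. Its difference from 1 h was -0.64 ± 0.17 (limma adjusted p = 0.233).

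The exocyst tethers secretory vesicles to the plasma membrane, and 2 of its subunit genes were members. Exoc4 stood at 15.3, 14.4 and 23.3 FPKM in control, 20.6, 22.6 and 19.0 at 1 h, and 9.07, 14.4 and 13.3 at 6 h. The 6 h libraries were all below those at 1 h, but 1 of them reached the lowest control. Exoc6b stood at 11.9 to 12.4 FPKM at 1 h and 7.02 to 8.67 at 6 h, with 8.79, 8.54 and 23.1 in control, where replicate 3 was far above the others. Arhgap24, which turns Rac off, had the lowest log2 difference of the group from 1 h to 6 h, -0.82 ± 0.27, from 15.4 to 26.8 FPKM at 1 h and 7.93 to 15.0 at 6 h. Trappc9, a subunit of the TRAPP tether, showed no such course, at 10.5 to 11.9 FPKM at 1 h and 9.41 to 14.6 at 6 h.

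The list of transcription factors and chromatin regulators held 12 members, and all 12 were below 0 both at 6 h against control (median -0.272) and from 1 h to 6 h (median -0.35). Without control replicate 3 and 6 h replicate 2 together, 10 and 9 of the 12 were below 0 from 1 h to 6 h and against control. With no overlap, 5 of the 12 were lower from 1 h to 6 h, beside 9.18% of all genes, and 3 against control, beside 4.16%. The list is not complete: Camta1, a calmodulin-binding transcription activator on no list, had log2 differences of 0.17 in both comparisons, and Smyd3, a lysine methyltransferase on no list, had -0.38 at 6 h against control and -0.34 from 1 h to 6 h. Bnc2, a zinc finger protein of mesenchymal cells, stood at 6.75, 7.50 and 4.73 FPKM in control, 7.84, 8.72 and 8.63 at 1 h, and 5.47, 5.12 and 4.70 at 6 h. The 1 h libraries were the highest, and the control and 6 h libraries overlapped. Maml2, a coactivator of Notch, stood at 2.38, 2.69 and 3.09 in control, 2.40, 2.53 and 2.43 at 1 h, and 1.43, 1.09 and 1.82 at 6 h. Zbtb20, a repressor, stood at 3.25 to 4.64 FPKM over the 6 earlier libraries and at 3.02, 2.92 and 3.02 at 6 h. Both were lower at 6 h than in any other library. Auts2, a partner of Polycomb complexes, spans 1104.7 kb and stood at 1.117 to 1.59 FPKM in control and 1 h libraries and 0.769 to 0.904 at 6 h.

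Nfia stood at 6.35, 5.98 and 7.96 FPKM at 1 h and 5.89, 5.66 and 5.36 at 6 h, with no overlap but a small difference (-0.22 ± 0.15). Foxp1 stood at 11.0, 3.47 and 6.17 FPKM at 6 h, so its 6 h libraries included both the highest and the lowest of the 9. Without 6 h replicate 2 its log2 difference was 0.093 against control and 0.077 from 1 h to 6 h, both above 0. Rora, a nuclear receptor, stood at 1.05 to 2.22 at 1 h and 0.683 to 1.36 at 6 h, which overlap.

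The list of RNA-binding proteins held 2 members, Celf2 and Rbms3, and both were lower at 6 h than at 1 h without overlap, where 9.18% of all genes were. Aff2 and Snd1 also bind RNA but were on no list. From 1 h to 6 h Aff2 was lower without overlap (-0.545), while Snd1 was not lower (0.13). Celf2, a splicing regulator, stood at 7.95, 7.40 and 14.3 FPKM in control, 9.56, 7.996 and 8.79 at 1 h, and 6.01, 4.64 and 6.99 at 6 h. Rbms3 (chr9:116572746-117629913) stood at 2.59, 2.46 and 3.62 in control, 3.97, 3.78 and 5.33 at 1 h, and 2.17, 2.88 and 1.97 at 6 h. Its 1 h libraries were above all others. The log2 differences were 0.46 ± 0.19 at 1 h (limma adjusted p = 0.667) and -0.68 ± 0.19 from 1 h to 6 h (limma adjusted p = 0.245).

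**Figure D4:**
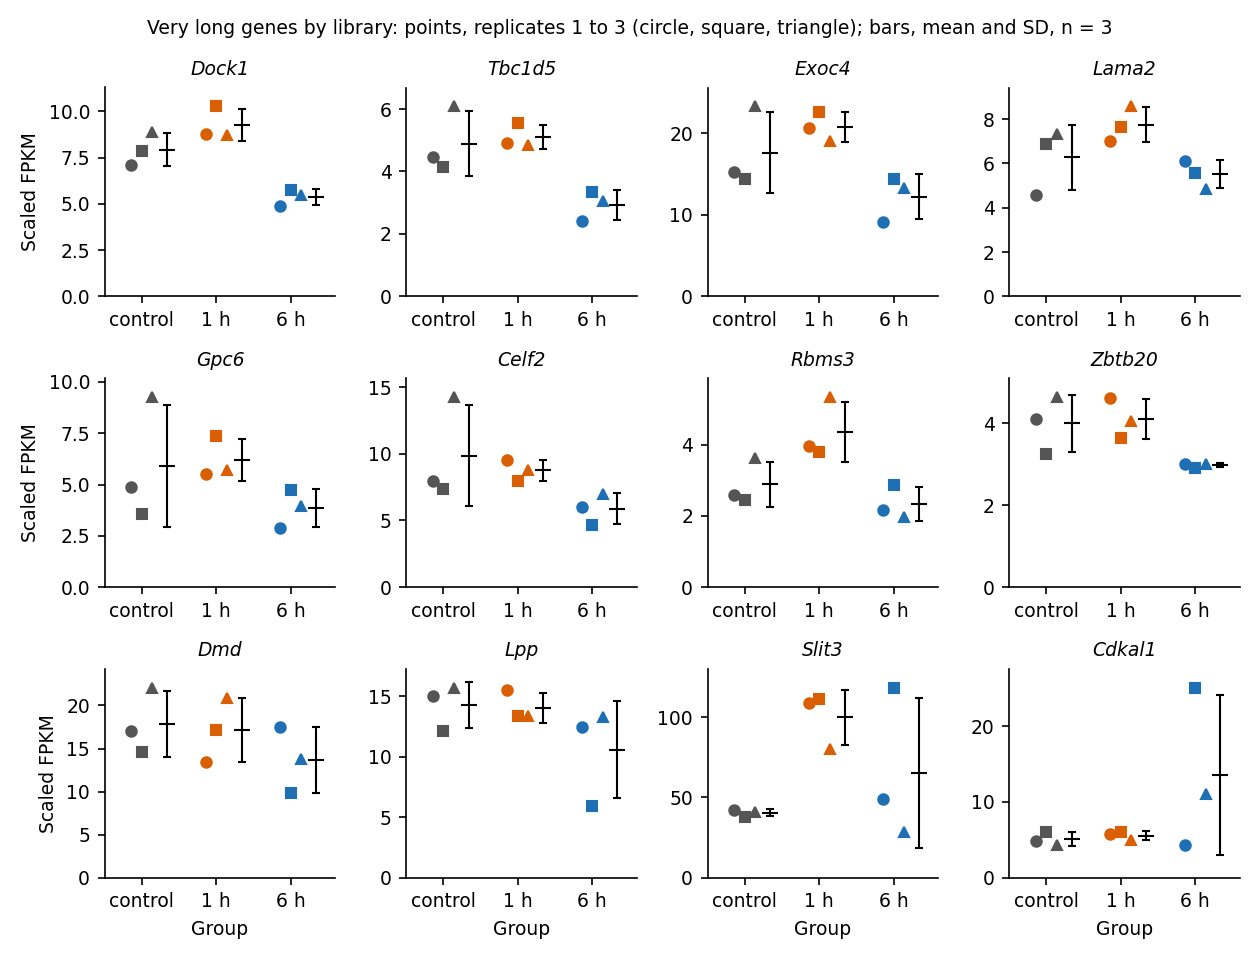
Scaled FPKM (y axis, from 0) of 12 very long genes in control, 1 h and 6 h libraries (x axis), with replicates 1 to 3 as circle, square and triangle and the mean and SD (n = 3) beside them. Dock1 and Tbc1d5 are lower in all 6 h libraries than in the 6 others, while Slit3 and Cdkal1 spread widely at 6 h.

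The extracellular matrix and its modifiers gave 5 members, with a median log2 difference of 0.284 at 1 h against control and -0.425 from 1 h to 6 h. Lama2, the laminin alpha-2 chain of muscle basement membrane, stood at 4.59, 6.89 and 7.33 FPKM in control, 7.02, 7.65 and 8.57 at 1 h, and 6.13, 5.57 and 4.86 at 6 h. Its 6 h libraries were below those at 1 h and within the control range. Gpc6, a glypican that carries heparan sulfate, stood at 4.87, 3.56 and 9.26 in control, 5.53, 7.37 and 5.68 at 1 h, and 2.90, 4.73 and 3.97 at 6 h. Hmcn1, a long matrix protein, stood at 0.599 to 1.19 in control, 1.35 to 2.39 at 1 h and 0.422 to 0.887 at 6 h, where the levels are near the lower limit of the rule. Its group means were 0.958, 1.731 and 0.585 FPKM, so it passed the level only through the 1 h libraries. Its place among the 11 members higher at 1 h and the 32 lower from 1 h to 6 h follows in part from how members were chosen. Thsd7a, a membrane protein with thrombospondin repeats, differed from these. It stood at 1.28, 0.957 and 1.01 in control, 2.204, 2.17 and 2.22 at 1 h, and 2.32, 2.499 and 1.36 at 6 h, above the controls at both times. Its difference at 1 h was 0.62 ± 0.18, with the smallest adjusted p of the members in that comparison (limma, 0.435). Thsd4 had overlapping groups, at 1.43 to 6.00 FPKM at 1 h and 1.65 to 5.97 at 6 h.

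Adhesion and polarity genes did not share the direction at 6 h. Of 8 members 4 were below 0 against control (median -0.008), and from 1 h to 6 h the median was -0.171. Slit3 (chr11:35121456-35708507), a secreted guidance ligand of Robo receptors, had the largest difference of all members at 1 h. It stood at 42.3, 38.0 and 41.0 FPKM in control and 109, 111 and 80.2 at 1 h. The groups did not overlap, with a log2 difference of 1.27 ± 0.41 (limma adjusted p = 0.509, all groups in 1 fit). Fitted with only the control and 1 h libraries, it was the 1 member called, at a limma adjusted p of 0.022, where 0.734% of all genes were called. At 6 h Slit3 stood at 49.1, 118 and 28.7, both the highest and the lowest of its 9 values. Robo2, one of its receptors, was low, at 0.296 to 2.07 FPKM over the 9 libraries. Pard3, a polarity scaffold, stood at 8.30, 9.55 and 9.20 in control and 10.3, 10.4 and 9.71 at 1 h, a difference of 0.16 ± 0.19 without overlap. Pcdh7, a protocadherin, stood at 12.6 to 17.9 at 1 h and 8.34 to 24.4 at 6 h.

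The cytoskeleton and the dystrophin complex gave 14 members, of which 13 were below 0 at 6 h against control (median -0.389) and 12 from 1 h to 6 h (median -0.296). Without control replicate 3 and 6 h replicate 2 together, 8 of the 14 were below 0 against control. With no overlap, 2 were lower than control, where 4.16% of all genes were, and 4 were lower than at 1 h, where 9.18% were. Dmd, encoding dystrophin, which ties the actin cytoskeleton to the matrix, stood at 17.0, 14.6 and 22.0 FPKM in control, 13.5, 17.1 and 20.9 at 1 h, and 17.5, 9.81 and 13.8 at 6 h. Its groups overlapped in every comparison. Lpp, a focal adhesion protein of smooth muscle, stood at 13.3 to 15.5 at 1 h and 12.4, 5.97 and 13.3 at 6 h, where replicate 2 stood far below the others. Diaph2, a formin, stood at 3.27, 3.35 and 8.10 in control, 3.87, 3.77 and 4.78 at 1 h, and 3.19, 2.14 and 2.52 at 6 h, lower than every earlier library. Large, whose product glycosylates dystroglycan, stood at 19.9, 18.1 and 19.9 in control and 16.5, 16.0 and 16.2 at 6 h. It had already stood at 19.1, 16.0 and 15.8 at 1 h. Utrn, the dystrophin relative utrophin, stood at 3.93, 3.69 and 10.3 in control, where replicate 3 again stood apart, and at 2.41 to 4.83 at 6 h.

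Kinases, phosphatases and cyclic nucleotide enzymes gave 11 members, with medians of -0.304 at 6 h against control and -0.239 from 1 h to 6 h. Cdk14, a cyclin-dependent kinase that acts in Wnt signalling, stood at 3.61 to 4.20 FPKM at 1 h and 1.78 to 2.73 at 6 h. The controls stood at 2.66, 4.25 and 4.53, which reach into the 6 h range. Prkg1, the cyclic GMP-dependent kinase of smooth muscle relaxation, stood at 0.686, 1.90 and 3.53 in control, 0.682 to 2.11 at 1 h and 0.439 to 0.954 at 6 h, so the controls alone differed widely. Pde4d, which degrades cyclic AMP, stood at 2.57 to 4.08 at 1 h and 1.26 to 3.59 at 6 h. Ptprg and Ptprk, receptor tyrosine phosphatases, had overlapping groups in every comparison. Prkca, protein kinase C alpha, stood at 3.92 to 5.13 at 1 h and 3.87 to 6.04 at 6 h. Ptprd, which has the longest table span of the members with a matched span, stood at 1.28, 1.27 and 4.75 in control. It stood at 0.913 to 1.13 at 1 h and 0.695 to 1.06 at 6 h, below the controls at both times. Ptprd and Prkg1 passed the level of the rule in part through the controls, so their being lower than control follows in part from how members were chosen.

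Of the channel genes, Cacna1c, the L-type channel subunit of smooth muscle, stood at 1.76, 1.91 and 2.27 FPKM in control, 1.95, 1.40 and 1.97 at 1 h, and 1.06, 1.23 and 0.965 at 6 h, lower than every earlier library. Its accessory subunit Cacna2d1 stood at 4.16 to 6.52 at 1 h and 3.53 to 5.92 at 6 h. Gabrb1, a GABA-A receptor subunit, stood at 6.70 to 11.0 at 1 h and 3.35 to 7.98 at 6 h. For both, the groups overlapped.

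Enzymes and the remaining genes were more mixed. Cpq, a carboxypeptidase, stood at 34.3, 16.5 and 28.4 FPKM in control, 40.9, 37.7 and 54.8 at 1 h, and 40.6, 50.9 and 26.0 at 6 h, so only the 1 h libraries cleared the controls. Oxr1, an oxidation resistance protein, stood at 12.8, 13.9 and 14.8 in control and 12.2, 8.84 and 11.9 at 6 h. Wwox, an oxidoreductase at a fragile site, stood at 3.52, 9.53 and 4.85 at 6 h, and Fhit, at another fragile site, at 0.944, 1.99 and 1.58, with wide spread. Immp2l stood at 1.31 to 1.79 at 1 h and 1.53 to 2.91 at 6 h. Cdkal1, which modifies transfer RNA, had the largest difference upwards at 6 h (0.99 ± 0.46). It stood at 4.37, 25.03 and 11.1 FPKM at 6 h and 4.29 to 6.09 in the 6 earlier libraries, so replicates 2 and 3 alone were high. Fbxl17, an F-box protein, stood at 1.84 to 2.49 over all 9 libraries.

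No list held the other 24 members, whose median log2 difference from 1 h to 6 h was -0.157, with 18 below 0. Among them, Aff2, a nuclear RNA-binding protein of the AFF family, stood at 2.77 to 3.24 FPKM in control, 5.38, 5.16 and 3.46 at 1 h, and 2.41 to 3.25 at 6 h. Pcsk5, a proprotein convertase, stood at 7.80 to 13.2 in control, 13.5 to 22.3 at 1 h and 12.4 to 17.6 at 6 h. Snd1, next to Slit3 the highest member with a matched span, at 56.8 to 77.7 FPKM, differed by -0.06 ± 0.15 at 1 h and by 0.13 ± 0.15 from 1 h to 6 h. Actg1 and Rpl38, whose table spans match no gene, stood at 1998 to 2831 and at 440.9 to 1009.

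The authors' deposited table makes its own calls, at a q-value of at most 0.001 and a change of at least 2-fold. In it, 1 member was higher at 1 h (Slit3) and 5 were lower (Etl4, Fhod3, Kalrn, Ptprd and Sema5a). These shares in the authors' deposited table, 0.98% and 4.9%, compare with 2.95% and 2.68% of other genes. At 6 h against control, the authors' deposited table has 1 member higher (Cdkal1) and 7 lower (Etl4, Fhod3, Kalrn, Lrba, Prkg1, Ptprd and Tnik), or 6.86% lower beside 1.96% of other genes and 0.98% higher beside 2.12%. Each of the genes lower at either time had its highest value in control replicate 3. Fhod3, Kalrn and Tnik stood there at 5.48, 3.12 and 2.74 FPKM. In the other libraries they stood at 0.288 to 1.41, 0.275 to 1.12 and 0.245 to 0.957. They passed the level of the rule only through that control library, so their being lower than control follows in part from how members were chosen. Ptprd and Prkg1 passed it in part through the controls, so the same holds for them. From 1 h to 6 h, the authors' deposited table has 2 members higher (Cdkal1 and Sema5a) and 1 lower (Hmcn1), or 0.98% lower beside 1.81% of other genes and 1.96% higher beside 1.59%. Hmcn1 passed the level of the rule only through the 1 h libraries. Genes that clear a 2-fold limit in the authors' deposited table are thus few, while the differences described above were mostly smaller than 2-fold.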

How the data were processed

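RNA was measured in 9 libraries of mouse peritubular myoid cells, 3 control, 3 at 1 h and 3 at 6 h after heat. The authors deposited 1 table of FPKM per gene and library, written to 2 decimals, per the file headers. Tools in the submitters' processing notes are RSEM 1.2.12, HISAT2 2.0.4 and Bowtie2 2.2.5, with the mm10 genome and no role for each. The deposited table also holds the authors' log2 fold changes, p-values and q-values per comparison. How reads that match several genes were shared is not recorded, so near-identical genes are uncertain, and with the strand setting not given in the sources used here, so are overlapping ones. Depth was estimated from the lowest values, of which 83.8% to 91.2% lay within 0.2 of a whole read.

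FPKM were divided by median-of-ratios factors. Without this scaling the median of other genes at 1 h was -0.171 on the log2 scale, and with it -0.015. The 11305 genes with a mean of at least 1 FPKM were tested in R 4.3.3 (limma 3.58.1). The scale was log2(FPKM + 1), which understates the change of low genes, and the fit had a variance trend, 3 group means, and 6 residual degrees of freedom. Tests were two-sided, Benjamini-Hochberg adjusted, and called below 0.05. The median SD between replicates was 0.236 in control, 0.144 at 1 h and 0.275 at 6 h. Data for 11305 genes were also simulated with independent normal noise and 1 pooled SD per gene in all groups. Of genes changed by a log2 of 1, 44.8% were called at 1 h with 10 false calls, 55.2% at 6 h with 6, and 52.2% for 6 h against 1 h with 9. The runs differ only in the random draw, so the shares do not rank the comparisons. Unequal spread between groups, shifts of whole libraries and changes below a log2 of 1 were not simulated. No overlap means that all libraries of a group lie on 1 side of all of the other.

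The members, role lists and markers were chosen with earlier results of these data known. By rule, the text names the 3 highest members of each role list, the 4 longest, those next to a threshold and a preset list. Other members, among them Dock1, Tbc1d5, Maml2, Thsd7a, Hmcn1, Exoc6b, Diaph2, Cdk14, Utrn, Aff2, Pcsk5, Snd1 and Robo2, were picked after their values were seen. Libraries of the same replicate number were compared by the correlation of their deviations from group means. It was 0.193, 0.143 and 0.249 between control and 1 h, and -0.348 to 0.046 with 6 h libraries. Libraries of unlike number were not compared, so these values cannot show whether replicate numbers pair the libraries. The main fit used no pairing. Alternatives were other scalings, pseudocounts, filters, span limits, a replicate block, only the groups compared, and each library left out.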

Additional observations from a re-analysis of the deposited data

How the results depend on the processing

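Of 2346 values of the 42 genes named by rule, under 20 planned and 2 later alternatives, 2197 kept direction and side of the threshold. Another 148, in 58 of 126 pairs of gene and comparison, changed sign, and 0 of them were called in either fit. The last was Slit3 at 1 h, called when only the control and 1 h libraries were fitted, which gave 1 member called. With the replicate block, 0 members were called in each comparison and the medians stayed at 0.016, -0.237 and -0.263. That block paired all 9 libraries by replicate number, including the 6 h libraries, and whether those numbers mark pairs is not known. Pairing control with 1 h alone was not tested.

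On the values as deposited the median at 1 h was -0.103, beside -0.171 for other genes, and 4 members were higher without overlap, where 4.44% of all genes were. With a pseudocount of 5 the medians were -0.106 at 6 h and -0.143 from 1 h to 6 h. With no level filter, over 310 genes, they were -0.023 and -0.016, with 17 genes higher at 1 h (8.09% of all genes) and 22 lower at 6 h (3.86%) without overlap. With a mean of at least 5 FPKM, which left 45 members, 6 were higher at 1 h (9.88% of all genes), 4 lower at 6 h (3.93%) and 13 lower from 1 h to 6 h (9.29%). Over 300 kb (200 members) these counts were 20, 24 and 56, and over 600 kb (31 members) 1, 6 and 10, beside 9.19%, 4.16% and 9.18% of all genes. Without control replicate 3 and 6 h replicate 2 together, chosen after seeing the data, the median was 0.146 at 1 h with 29 higher (17.2% of all genes), and -0.076 at 6 h with 30 lower (18.3%).

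Leaving out each library in turn, 0 members were called in any comparison. The medians ranged from -0.011 to 0.149 at 1 h, -0.319 to -0.105 at 6 h and -0.309 to -0.224 from 1 h to 6 h. Members without overlap ranged from 11 to 29 higher at 1 h, 14 to 32 lower at 6 h and 31 to 47 lower from 1 h to 6 h, where fewer libraries make overlap rarer. At 1 h the count was 29 without control replicate 3, where 17.5% of all genes were higher. At 6 h it was 32 without control replicate 2 (8.67% of all genes), 23 without control replicate 1 (8.78%), 26 without 6 h replicate 1 (11.8%) and 24 without 6 h replicate 2 (8.43%). Between 1 h and 6 h it was 47 without 6 h replicate 1 (18.3%) and 31 without control replicate 2 (9.08%). The cause of the other shifts was not tested. Members near 1 FPKM rest on few reads.

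The log2 differences of named genes that changed sign, all uncalled, follow by alternative. With quantile normalization they were Actg1 -0.013, Auts2 -0.003, Fbxl17 0.006, Fhit -0.025, Rora -0.001 and Rpl38 -0.198 at 1 h. At 6 h they were Actg1 -0.005 and Wwox 0.054, and from 1 h to 6 h Pcdh7 0.022, Ptprk 0.005 and Trappc9 0.029. On the values as deposited they were, at 1 h, Auts2 -0.098, Cdkal1 -0.025, Fhit -0.089, Foxp1 -0.141, Gpc6 -0.012, Nfia -0.098, Pard3 -0.006, Pcdh7 -0.088, Prkca -0.02, Ptprg -0.003, Rora -0.108, Rpl38 -0.076, Trappc9 -0.099, Wwox -0.039 and Zbtb20 -0.107, and from 1 h to 6 h Fbxl17 0.028, Large 0.062, Pcdh7 0.094, Ptprk 0.053 and Trappc9 0.101. With a pseudocount of 0.1 they were Fbxl17 0.002, Fhit -0.049 and Rora -0.004 at 1 h, and with one of 5 Wwox was 0.018 at 6 h.

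Without control replicate 3 and 6 h replicate 2 together, the values that changed sign at 1 h were Cacna2d1 0.133, Celf2 0.17, Dmd 0.097, Dst 0.159, Elmo1 0.083, Fbxl17 0.085, Fhit -0.062, Lpp 0.048, Prkg1 0.008 and Rpl38 -0.109. At 6 h they were Cacna2d1 0.038, Dst 0.089, Fbxl17 0.03, Foxp1 0.127, Immp2l -0.082, Pard3 0.113, Pde10a 0.146, Pde4d 0.067, Rpl38 -0.038, Slit3 -0.093, Thsd4 0.286 and Trappc9 -0.094; from 1 h to 6 h they were Foxp1 0.076, Immp2l -0.012, Pcdh7 0.382 and Ptprk 0.061.

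Leaving out 1 library at a time, 21 named genes crossed 0 at 1 h. Their ranges were Auts2 -0.07 to 0.074, Cacna2d1 -0.193 to 0.136, Celf2 -0.262 to 0.173, Dmd -0.198 to 0.101, Dst -0.501 to 0.162, Elmo1 -0.269 to 0.084, Fbxl17 -0.062 to 0.087, Fhit -0.139 to 0.226, Foxp1 -0.125 to 0.112, Gpc6 -0.121 to 0.469 and Immp2l -0.135 to 0.022. The others were Lpp -0.125 to 0.051, Nfia -0.05 to 0.128, Pcdh7 -0.036 to 0.229, Prkg1 -0.703 to 0.01, Ptprk -0.222 to 0.192, Rora -0.122 to 0.203, Rpl38 -0.106 to 0.25, Sgcd -0.004 to 0.747, Trappc9 -0.06 to 0.157 and Zbtb20 -0.079 to 0.128. At 6 h 14 crossed 0, with ranges of Fbxl17 -0.116 to 0.03, Foxp1 -0.619 to 0.093, Gabrb1 -0.424 to 0.176, Immp2l -0.078 to 0.237, Pard3 -0.267 to 0.10, Pcdh7 -0.258 to 0.46, Pde10a -0.203 to 0.189, Pde4d -0.504 to 0.006, Ptprk -0.281 to 0.132, Sgcd -0.374 to 0.273, Slit3 -0.102 to 0.899, Thsd4 -0.688 to 0.007, Trappc9 -0.121 to 0.172 and Wwox -0.347 to 0.266. Between 1 h and 6 h 12 crossed 0, with ranges of Actg1 -0.007 to 0.13, Cpq -0.421 to 0.049, Elmo1 -0.254 to 0.093, Foxp1 -0.638 to 0.077, Immp2l -0.011 to 0.302, Large -0.103 to 0.024, Pcdh7 -0.338 to 0.383, Prkca -0.055 to 0.212, Ptprk -0.215 to 0.086, Thsd4 -0.285 to 0.483, Trappc9 -0.183 to 0.106 and Wwox -0.458 to 0.152.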
